A study of Mus musculus with 12 samples.

Results

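The 10 mouse genes described here, Cd68, P2rx3, Sh2d6, Odf3l1, Hspb7, Mogat2, Selp, Pkp1, Akr1c18 and Tmem74, were chosen by their TPM: each stood higher in the libraries of lactic acid-treated cells than in those of control or 15% CO2 cells. They are 10 of the 21959 genes measured, and all 10 were among the 11996 genes that reached at least 1 TPM in all 3 libraries of a group. TPM is a gene's share of the RNA of its library, corrected for transcript length, and sums to 1000000 over the genes of a library. The cells were C8-D1A, an established mouse line described as astrocytes, the glial cells that support neurons. Each of 4 groups had 3 libraries, taken after 24 h: cells given 20 mM lactic acid, cells kept under 15% CO2, cells in medium with 0.2 g/L NaHCO3 (low-NaHCO3 medium), and control cells at 37 °C under 5% CO2. The labels give neither the pH reached, by which treatments could be matched, nor whether replicates were grown as separate cultures. The p-values below measure only the spread between these libraries, which may be technical.

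Lactic acid brings both protons and lactate to a cell, whereas CO2 crosses membranes and forms carbonic acid, and a medium poor in bicarbonate has lost part of its main buffer. Astrocytes make and release lactate in the brain and sense extracellular acid through channels and receptors. The 10 genes do not belong to a common pathway. Most are textbook genes of other cell types: Cd68 of macrophages, P2rx3 of sensory neurons, Selp of platelets and endothelium, Pkp1 of epidermis, Hspb7 of muscle, Mogat2 of the gut lining and Akr1c18 of the ovary.

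One library stood apart. Control 1 had a rank correlation of 0.8586 to 0.8839 with the other 11 libraries, which had 0.958 to 0.9795 among themselves, and it held 603 TPM of the neuronal gene Snap25, against at most 0.0363 TPM elsewhere. Of 14 astrocyte markers, 7 reached at most 1.2 TPM in any library outside control 1, among them Gfap (at most 1.19 TPM) and Slc1a3 (at most 0.021 TPM). The other 7 (S100b, Glul, Ndrg2, Fabp7, Sox9, Vim and Nes) exceeded 10 TPM in at least 1 such library, S100b with a mean of 43.3 TPM in lactic acid and Glul with 70.3 TPM. Control 1 was the lowest of the 3 controls for 8 of the 10 genes, as it was for 50.1% of all genes tested, and the lowest of all 12 libraries for 6 of them, as for 21.6% of all. Differences from control are therefore given with and without it. Levels in a bulk library cannot tell fewer cells of a type from less RNA per cell.

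**Figure D1:**
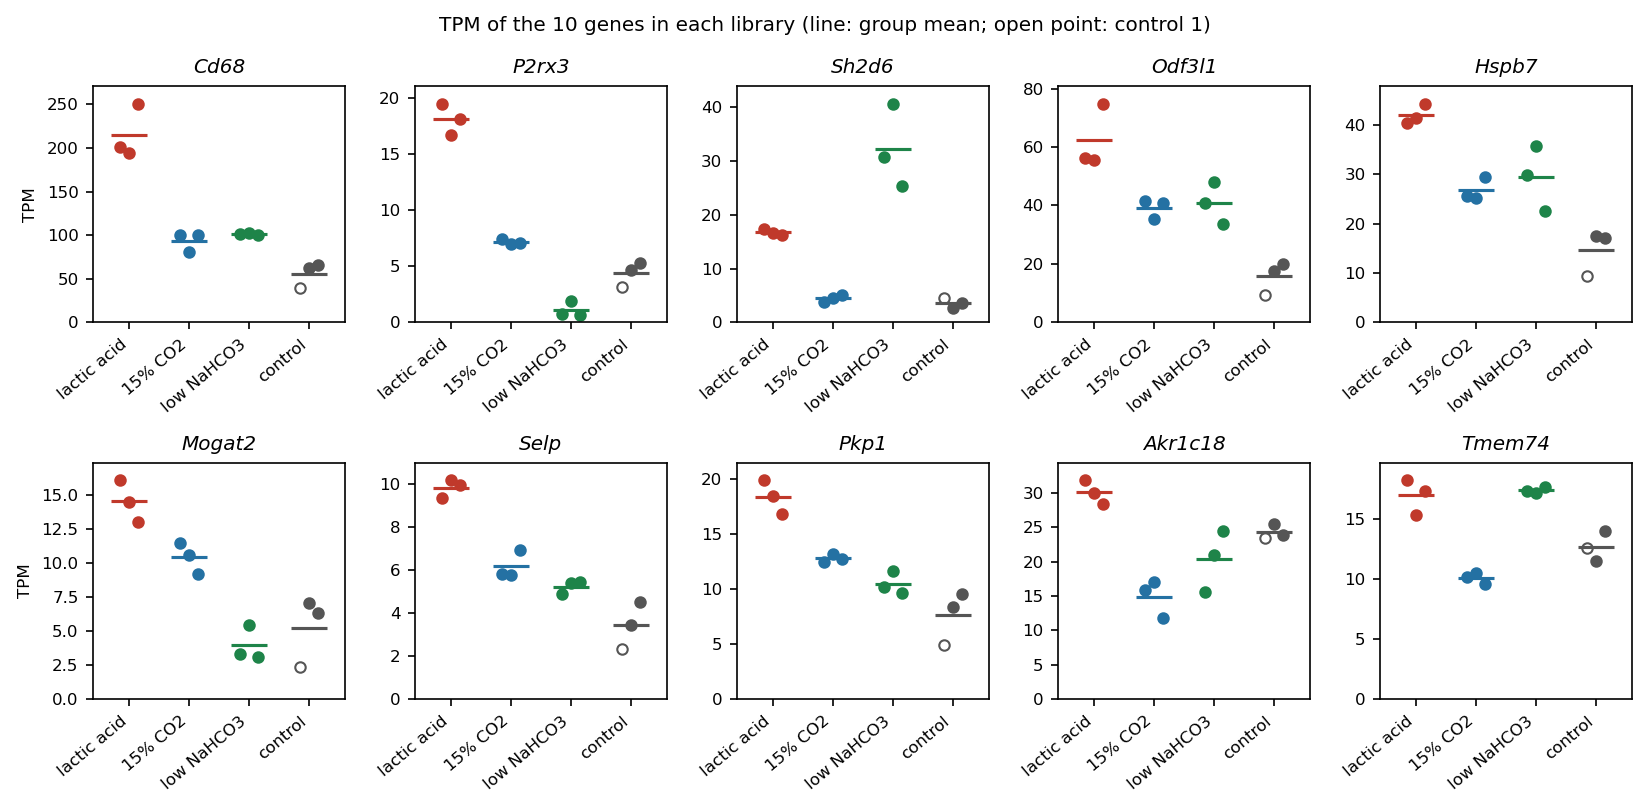
TPM (vertical axes, each from 0) of the 10 genes in each library of 4 groups; points are libraries, lines are group means, and the open point is control 1. The 3 lactic acid libraries are the highest of all 12 for 8 genes, while Sh2d6 is highest in low-NaHCO3 medium and the lactic acid and low-NaHCO3 libraries of Tmem74 overlap.

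The first genes by role are those of the membrane and cell surface. Cd68 (ENSMUSG00000018774, chromosome 11) encodes a heavily glycosylated protein of late endosomes and lysosomes. It stood at 201, 194 and 251 TPM in lactic acid libraries 1 to 3, at 99.8, 80.4 and 99.9 TPM in 15% CO2, at 101, 102 and 100.2 TPM in low-NaHCO3 medium, and at 39.6, 61.9 and 65.7 TPM in control. All 3 treatments lay wholly above control, lactic acid lay wholly above both other treatments, and low-NaHCO3 medium lay just above 15% CO2. It was the most abundant of the 10 genes in every group. P2rx3 (ENSMUSG00000027071, chromosome 2) encodes a subunit of the ATP-gated cation channels of sensory neurons. It stood at 19.5, 16.7 and 18.1 TPM in lactic acid, at 7.40, 6.97 and 7.08 TPM in 15% CO2, at 0.762, 1.88 and 0.670 TPM in low-NaHCO3 medium, and at 3.11, 4.70 and 5.30 TPM in control. No 2 of its 4 groups overlapped, and it was the only one of the 10 whose 3 lactic acid libraries were the highest and whose 3 low-NaHCO3 libraries were the lowest of all 12, an order found in 0.809% of tested genes.

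Selp (ENSMUSG00000026580, chromosome 1) encodes P-selectin, the adhesion protein that platelets and endothelial cells bring to their surface to catch leukocytes. Its libraries held 9.34, 10.2 and 9.99 TPM in lactic acid, 5.84, 5.79 and 6.92 TPM in 15% CO2, 4.88, 5.38 and 5.44 TPM in low-NaHCO3 medium, and 2.33, 3.42 and 4.52 TPM in control. Its 4 groups did not overlap and ran in the order lactic acid, 15% CO2, low-NaHCO3 medium, control. Pkp1 (ENSMUSG00000026413, chromosome 1) encodes plakophilin 1, a plaque protein of desmosomes, the junctions that hold epithelial cells together. It stood at 19.9, 18.4 and 16.8 TPM in lactic acid, at 12.4, 13.2 and 12.7 TPM in 15% CO2, at 10.2, 11.6 and 9.61 TPM in low-NaHCO3 medium, and at 4.86, 8.31 and 9.57 TPM in control. It had the same order with no overlap, though the lowest low-NaHCO3 library lay only just above control 3. Selp and Pkp1 were the most alike of all pairs among the 10: their log2(TPM + 1) profiles, centred over the 11 libraries without control 1, differed by a root mean square of 0.13.

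Sh2d6 (ENSMUSG00000052631, chromosome 6) encodes a protein with an SH2 domain, which binds phosphorylated tyrosines. Its values were 17.4, 16.7 and 16.2 TPM in lactic acid, 3.78, 4.60 and 5.14 TPM in 15% CO2, 30.7, 40.7 and 25.3 TPM in low-NaHCO3 medium, and 4.54, 2.72 and 3.50 TPM in control. Low-NaHCO3 medium was wholly above lactic acid, which was wholly above 15% CO2, and 15% CO2 overlapped control. Its profile was farthest from that of P2rx3, with a root mean square difference of 2.0. In low-NaHCO3 medium Sh2d6 had its highest and P2rx3 its lowest level.

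Hspb7 (ENSMUSG00000006221, chromosome 4) encodes a small heat shock protein of heart and skeletal muscle, and Odf3l1 (ENSMUSG00000045620, chromosome 9) is named after an outer dense fibre protein of the sperm tail. Hspb7 stood at 40.4, 41.3 and 44.3 TPM in lactic acid, at 25.5, 25.2 and 29.4 TPM in 15% CO2, at 29.9, 35.6 and 22.6 TPM in low-NaHCO3 medium, and at 9.47, 17.4 and 17.0 TPM in control. Odf3l1 stood at 56.3, 55.6 and 74.9 TPM in lactic acid, at 41.6, 35.3 and 40.9 TPM in 15% CO2, at 40.7, 48.1 and 33.5 TPM in low-NaHCO3 medium, and at 9.42, 17.7 and 20.0 TPM in control. In both, lactic acid was wholly above the other groups, 15% CO2 and low-NaHCO3 medium overlapped each other, and control was wholly below. Their profiles differed by a root mean square of 0.19, the second smallest among pairs of the 10.

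The enzymes come next. Mogat2 (ENSMUSG00000052396, chromosome 7) encodes monoacylglycerol acyltransferase 2, which rebuilds diacylglycerol from absorbed fat in the intestine. It stood at 16.1, 14.5 and 13 TPM in lactic acid, at 11.5, 10.6 and 9.19 TPM in 15% CO2, at 3.33, 5.45 and 3.05 TPM in low-NaHCO3 medium, and at 2.31, 7.03 and 6.31 TPM in control. Lactic acid was wholly above 15% CO2, and control and low-NaHCO3 medium overlapped below them. Without control 1 the low-NaHCO3 libraries were all below the controls. Akr1c18 (ENSMUSG00000021214, chromosome 13) encodes the aldo-keto reductase that inactivates progesterone in the mouse ovary. Its libraries held 31.9, 30.0 and 28.4 TPM in lactic acid, 15.9, 17.0 and 11.8 TPM in 15% CO2, 15.6, 20.9 and 24.5 TPM in low-NaHCO3 medium, and 23.4, 25.5 and 23.9 TPM in control. It differed from the genes above in that 15% CO2 lay wholly below control.

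Tmem74 (ENSMUSG00000054409, chromosome 15) encodes a membrane protein of lysosomes and autophagosomes that promotes autophagy in human cells. It stood at 18.3, 15.4 and 17.4 TPM in lactic acid, at 10.2, 10.5 and 9.63 TPM in 15% CO2, at 17.4, 17.2 and 17.7 TPM in low-NaHCO3 medium, and at 12.6, 11.5 and 14 TPM in control. Lactic acid and low-NaHCO3 medium overlapped, both lay above control, and 15% CO2 lay below it. Across the 10 genes the coefficient of variation within lactic acid ran from 3.47% for Sh2d6 to 17.6% for Odf3l1. Within control it reached 48.8%, for Mogat2, with control 1 included.

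Promoter sequences were read from RefSeq (GRCm38.p6) as windows of 300 bases, 250 before and 50 after the annotated start; the files themselves use GRCm39. Windows were found for 6 of the 10 genes, 7 in all because Odf3l1 has 2. There was none for P2rx3, Mogat2, Pkp1 and Tmem74. Those of Cd68, the most abundant gene, of Selp, and of Sh2d6, the gene highest in low-NaHCO3 medium, are shown 5′ to 3′ on the strand of the gene. Capitals mark the CCAAT box (CCAAT), the AP-1 element (TGANTCA) and the TEAD element (GGAATG) on either strand.
Cd68 (chr11:69666121-69666420, minus strand): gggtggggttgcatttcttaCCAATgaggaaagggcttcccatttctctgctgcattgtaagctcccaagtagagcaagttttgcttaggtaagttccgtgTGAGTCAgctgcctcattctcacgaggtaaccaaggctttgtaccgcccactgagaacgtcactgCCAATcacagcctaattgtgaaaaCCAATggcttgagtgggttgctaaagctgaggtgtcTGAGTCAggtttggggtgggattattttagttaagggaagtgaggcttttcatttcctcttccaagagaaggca
Selp (chr1:164115014-164115313, plus strand): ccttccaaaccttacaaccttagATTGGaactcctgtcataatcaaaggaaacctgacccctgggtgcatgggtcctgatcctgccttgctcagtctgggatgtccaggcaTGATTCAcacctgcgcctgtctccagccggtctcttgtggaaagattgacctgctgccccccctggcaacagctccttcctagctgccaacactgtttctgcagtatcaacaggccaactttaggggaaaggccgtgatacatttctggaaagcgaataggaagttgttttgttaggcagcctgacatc
Sh2d6 (chr6:72519987-72520286, minus strand): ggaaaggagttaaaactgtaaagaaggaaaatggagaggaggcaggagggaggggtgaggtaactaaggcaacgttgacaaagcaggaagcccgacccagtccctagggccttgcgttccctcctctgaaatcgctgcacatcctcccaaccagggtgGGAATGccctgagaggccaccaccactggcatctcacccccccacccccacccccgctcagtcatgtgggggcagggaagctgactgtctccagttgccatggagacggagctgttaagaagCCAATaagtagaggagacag
CCAAT was present in 5 of the 7 windows, those of Cd68, Sh2d6, Selp and both of Odf3l1, against 37.4% of all 32851 RefSeq windows. The AP-1 letters were present in 2 windows, Cd68 and Selp, against 7.81% of all, and GGAATG in those of Sh2d6 and Hspb7, against 14.7%. Of the other motifs searched, GGGCGG (35.7% of all windows) was in Cd68 and Akr1c18, TGACG (20.8%) in Cd68, GAANNTTC (7.86%) in Akr1c18 and TGACNNNGC (12.4%) in Sh2d6. TATAAA (13.6%), CACGTG (7.15%), ACGTG (19.6%) and TTCNNNGAA (8.3%) were in none. Every CACGTG match also holds ACGTG, and a TGACNNNGC match can hold TGACG. These are matches of letters and were not tested as sites of binding.

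Lactic acid against control, and lactic acid against 15% CO2, chose the genes and are given as descriptions without a test. Against control the log2 difference of TPM + 1 was 1.97 ± 0.19 (SE of the fit) for Sh2d6, 1.97 ± 0.24 for Odf3l1, 1.95 ± 0.18 for Cd68 and 1.85 ± 0.22 for P2rx3, the 4 highest of the 11996 genes tested. Hspb7 (1.51), Mogat2 (1.42), Selp (1.32) and Pkp1 (1.22) followed, at ranks 5, 6, 12 and 15. Tmem74 (0.39) and Akr1c18 (0.30) ranked 1024 and 1686. In TPM the differences ran from 1.24-fold for Akr1c18 to 4.68-fold for Sh2d6. All 10 genes had lactic acid wholly above control, as did 15.3% of tested genes, and 2.73% of tested genes were called higher at an adjusted p under 0.05. Without control 1 the values were 2.12 for Sh2d6, 1.73 for Cd68, 1.67 for P2rx3, 1.66 for Odf3l1, 1.24 for Hspb7, 1.14 for Selp, 1.01 for Mogat2, 0.96 for Pkp1, 0.39 for Tmem74 and 0.27 for Akr1c18. Their ranks then were 1, 2, 3, 5, 14, 23, 41, 55, 1106 and 1949 in the same order, so several high ranks depended on control 1.

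The differences from 15% CO2 hold no control library, but their SEs and calls come from a fit that includes the controls. Sh2d6 (1.70 ± 0.19), P2rx3 (1.23 ± 0.22) and Cd68 (1.19 ± 0.18) had the 3 highest log2 differences of all genes tested. Akr1c18 followed among the 10 with 0.98 ± 0.16, a 2.02-fold difference at rank 12, and Tmem74 with 0.70 ± 0.10 at rank 38. Both had small differences from control, and their 15% CO2 libraries were below the controls. Odf3l1 and Hspb7 (0.64 each), Selp (0.60), Pkp1 (0.49) and Mogat2 (0.44) ranked 55 to 201. All 10 had lactic acid wholly above 15% CO2, as did 8.92% of tested genes, and 0.0584% of tested genes were called higher. That share depended on control 1: 7 of 11996 genes were called higher with it and 205 of 12023 without it.

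**Figure D2:**
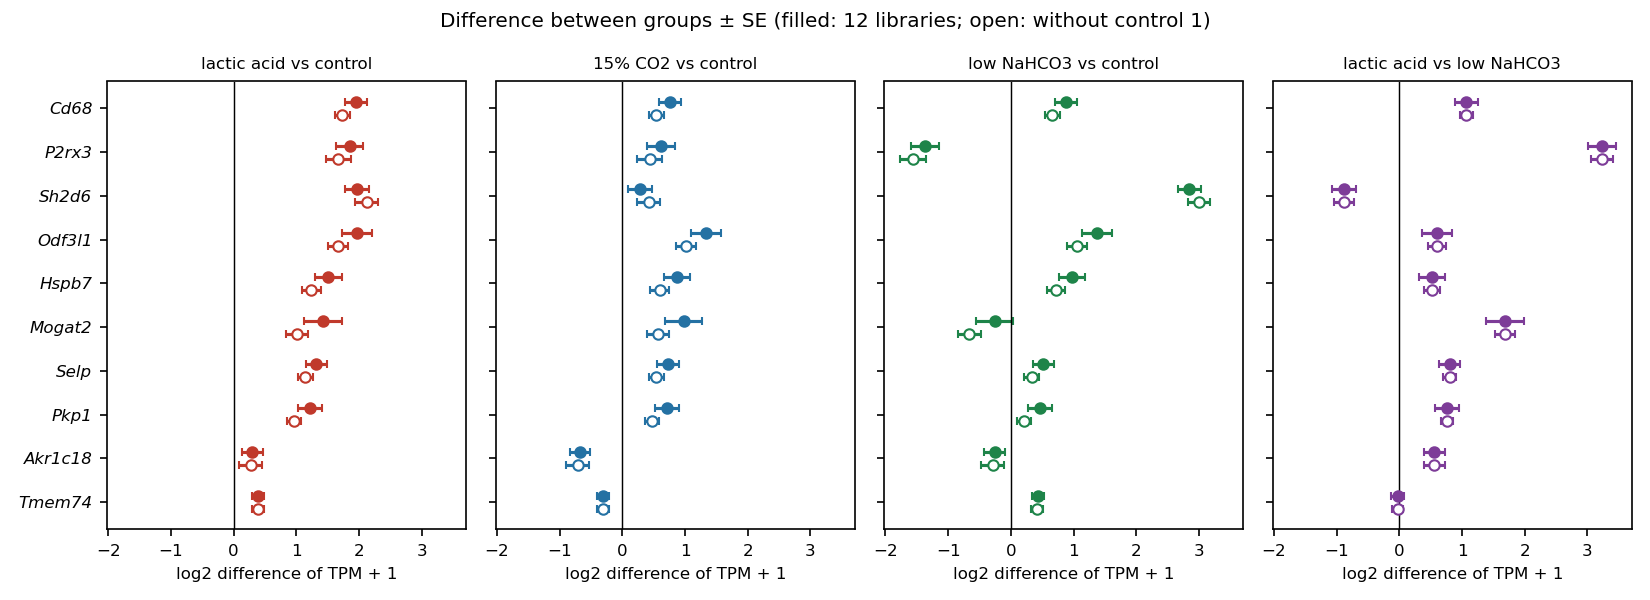
Log2 difference of TPM + 1 (horizontal axis) for each of the 10 genes in 4 comparisons; points are the fitted differences, bars are their standard errors, filled points use 12 libraries and open points leave out control 1. P2rx3 and Sh2d6 take opposite sides in low-NaHCO3 medium, at -1.37 and 2.85.

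In 15% CO2 against control both groups had a part in choosing the genes, so the values are again a description without a test. Cd68, P2rx3, Odf3l1, Hspb7, Mogat2, Selp and Pkp1 had 15% CO2 wholly above control, as did 15.6% of tested genes, and 1.34% of tested genes were called higher and 0.0667% lower. Odf3l1 had the highest log2 difference of the 10, 1.33 ± 0.24, a 2.5-fold difference, followed by Mogat2 (0.98 ± 0.30), Hspb7 (0.87 ± 0.21), Cd68 (0.76 ± 0.18), Selp (0.73 ± 0.17), Pkp1 (0.72 ± 0.19) and P2rx3 (0.62 ± 0.22). Sh2d6 had 0.28 ± 0.19, and its 15% CO2 and control libraries overlapped. Akr1c18 (-0.68 ± 0.16) and Tmem74 (-0.31 ± 0.10) had 15% CO2 wholly below control, as did 6.52% of tested genes.

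Without control 1 the differences between 15% CO2 and control were 1.02 for Odf3l1, 0.60 for Hspb7, 0.57 for Mogat2, 0.54 for Cd68 and Selp, 0.47 for Pkp1, 0.44 for P2rx3 and 0.42 for Sh2d6. Those of Akr1c18 and Tmem74 were -0.71 and -0.31. Leaving out control 1 thus lowered 7 of the 8 positive values, and that of Sh2d6 became higher.

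Low-NaHCO3 medium against control used libraries of low-NaHCO3 medium that had no part in choosing the genes. Its controls had a part, so the choice itself favours higher values here. The adjusted p-values and calls of the 10 genes are thus not independent of the choice, and a rise is no separate support for it. It was tested with limma over all genes, with Benjamini-Hochberg adjustment. Of the 10 genes, 6 rose and 1 fell, where 20.5% of tested genes were called higher and 35.8% lower. Low-NaHCO3 medium lay wholly above control for 7 of them and wholly below for 1, as it did for 24.3% and 40.4% of tested genes. The median difference was 0.49 for the 10 genes and -0.194 for all genes tested. Sh2d6 rose most, by 2.85 ± 0.19 on the log2 scale, to 32.2 ± 7.83 TPM in low-NaHCO3 medium, against 3.58 ± 0.913 TPM in control (SD, n = 3 each; 8.98-fold, adjusted p = 1.26e-06). It ranked 32 among all genes. Odf3l1 rose by 1.37 ± 0.24 (adjusted p = 0.000638), Hspb7 by 0.98 ± 0.21 (0.00242), Cd68 by 0.88 ± 0.18 (0.00155), Selp by 0.52 ± 0.17 (0.0213) and Tmem74 by 0.43 ± 0.10 (0.00411). P2rx3 fell by 1.37 ± 0.22 on the log2 scale, to 1.1 ± 0.675 TPM in low-NaHCO3 medium, against 4.37 ± 1.13 TPM in control (SD, n = 3 each; adjusted p = 0.000329).

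Pkp1 (0.46, adjusted p = 0.0538), Mogat2 (-0.26, 0.475) and Akr1c18 (-0.26, 0.185) did not pass in low-NaHCO3 medium. Without control 1, Mogat2 fell by 0.66 (adjusted p = 0.00796), while under quantile normalization its difference was 0.27, so its direction depends on the setting. That made 6 higher and 2 lower of 10 without control 1, where 23.1% of tested genes were called higher and 41.5% lower. Pkp1 passed with median-of-ratios scaling (0.64, adjusted p = 0.0108), quantile normalization (0.93, 0.019) and without control 2 or control 3 (0.0486 and 0.0139). Selp did not pass without low-NaHCO3 library 2 or 3 (adjusted p = 0.0572 and 0.061) or in a fit of only the 2 groups (0.0922). Scaling matters in this comparison: the calls were 2454 higher and 4289 lower as deposited, 3562 and 3245 with median-of-ratios scaling, and 3054 and 2732 with quantile normalization, and the median over all genes was -0.00851 and 0.00361 under the 2 rescalings. The directions of the 7 genes called were the same under both.

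Lactic acid against low-NaHCO3 medium sets the group whose high values chose the genes beside one that had no part in the choice, and it too is given without a test. Lactic acid lay wholly above low-NaHCO3 medium for 8 of the 10 genes and wholly below for 1, as it did for 44.1% and 27.1% of tested genes. Over all genes, 31.7% were called higher and 18.3% lower. P2rx3 held 18.1 ± 1.39 TPM in lactic acid, against 1.1 ± 0.675 TPM in low-NaHCO3 medium (SD, n = 3 each), a 16.4-fold difference, with a log2 difference of 3.23 ± 0.22. The log2 difference was 1.68 ± 0.30 for Mogat2 (3.68-fold) and 1.07 ± 0.18 for Cd68 (2.13-fold). The differences of Selp (0.80), Pkp1 (0.76), Odf3l1 (0.60), Akr1c18 (0.56) and Hspb7 (0.52) were smaller. Sh2d6 was the gene wholly below, with a log2 difference of -0.88 ± 0.19, at 16.8 ± 0.582 TPM in lactic acid, against 32.2 ± 7.83 TPM in low-NaHCO3 medium (SD, n = 3 each). Tmem74 had -0.03 ± 0.10, with libraries that overlapped.

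Control 1 does not enter these differences, but it enters their SEs and the calls through the shared fit. Without it the SE was 0.16 for Mogat2 and 0.11 for Cd68, and 8185 genes were called, against 5998 with it. Over 20 alternatives the value of P2rx3 ran from 2.83 to 4.05, that of Mogat2 from 1.23 to 1.90, that of Cd68 from 0.89 to 1.21 and that of Sh2d6 from -1.06 to -0.70. The values of Selp (0.35) and Pkp1 (0.47) were lowest under quantile normalization, which brought them down by more than 1.5 times. The comparisons with control and those with low-NaHCO3 medium share libraries, so their values are not independent of each other.

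The relatives of the 10 genes by family or pathway, and markers of the cell types they are known from, formed 20 lists with 316 genes in the table, none of them members. In lactic acid against control, 14 lists had no gene past the threshold of an adjusted p of 0.05 in limma. Over all tested genes 2.73% were called higher and 1.68% lower. Of the 75 tested genes in these 14 lists, 15 had an unadjusted p under 0.05, as had 2824 of all 11996 genes tested. Of 6 tested P2X and P2Y nucleotide receptors, relatives of P2rx3, none passed. P2rx7, the most abundant, held 399 ± 10.8 TPM in lactic acid, against 336 ± 82.1 TPM in control (SD, n = 3 each; 0.28, adjusted p = 0.297). P2rx4 passed without control 1 (0.35, adjusted p = 0.0325). None of 4 small heat shock genes (Cryab, 0.23; Hspb8, 0.05), of 5 desmosome genes (Pkp4, -0.18; Jup, -0.15) or of 9 aldo-keto reductases (Akr1a1, -0.11; Akr1b8, 0.23) passed, with or without control 1. The same held for 9 tested relatives of Cd68 in the LAMP family and among endosomal tetraspanins (Lamp1, 0.17; Cd63, -0.12) and for 4 genes of the sperm tail list (Odf2, 0.18; Spag5, 0.23). None of 9 genes of progesterone and steroid metabolism (Hsd17b12, -0.01; Pgrmc1, -0.46) or of 9 adaptors and partners of the SLP-76 family (Grb2, -0.36; Plcg1, 0.19) passed with all libraries. Without control 1, 3 of the first list fell and 3 of the second rose, where 7.34% of tested genes were called lower and 9.31% higher in that fit.

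Of 19 tested genes of acylglycerol synthesis and storage, around Mogat2, 1 rose and 2 fell. Pnpla2, which encodes the lipase that starts triacylglycerol breakdown, rose by 0.44 ± 0.081 (adjusted p = 0.0183). Gpat4 and Agpat5, acyltransferases of the pathway that builds glycerolipids from glycerol 3-phosphate, fell by 0.39 (adjusted p = 0.0331) and by 0.47 (0.0258). Around Selp, 1 of 4 tested selectins and ligands rose: Podxl, which encodes the sialomucin podocalyxin, by 0.68 ± 0.13 (adjusted p = 0.0204). Around Tmem74, 1 of 31 tested autophagy genes rose, Wipi1, an effector of phosphatidylinositol 3-phosphate on forming autophagosomes, by 0.59 ± 0.13 (adjusted p = 0.0345). Without control 1, 6 autophagy genes rose and 1 fell. The median difference was -0.11, 0.45 and -0.14 for these 3 lists, beside -0.033 for all genes tested. Leaving out control 1 gave medians of 0.06, 0.32 and 0.01, beside -0.002. The differences of Pnpla2, Gpat4, Agpat5, Podxl and Wipi1 were then 0.40, -0.40, -0.44, 0.50 and 0.40. Each of Podxl, Wipi1, Gpat4 and Agpat5 missed the threshold without any 1 lactic acid library, with an adjusted p from 0.0594 to 0.105, and Pnpla2 without lactic acid library 2 or 3 (0.0566 and 0.0517). Leaving out control 2 also ended the calls of Wipi1, Gpat4 and Agpat5 (0.0517, 0.0822 and 0.064), as did leaving out 15% CO2 library 1 (0.0636, 0.0631 and 0.0532) or low-NaHCO3 library 1 (0.0606, 0.0604 and 0.0523). Leaving out low-NaHCO3 library 2 ended those of Wipi1 and Gpat4 (0.0549 and 0.0533), leaving out control 3 that of Gpat4 (0.0603), and leaving out 15% CO2 library 2 or 3 or low-NaHCO3 library 3 that of Wipi1 (0.0519 to 0.055).

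Muscle markers, around Hspb7, included 2 of 12 tested genes that rose and 1 that fell. Des, the muscle intermediate filament desmin, rose by 1.06 ± 0.16, with 25.8 ± 1.78 TPM in lactic acid, against 12.1 ± 3.07 TPM in control (SD, n = 3 each; adjusted p = 0.0107). Nppb, a natriuretic peptide of the heart, rose by 1.04 ± 0.25 (adjusted p = 0.0419), and Myog, the muscle transcription factor myogenin, fell by 1.06 ± 0.22 (0.0279). Nppb and Myog missed the threshold without lactic acid library 1 (adjusted p = 0.127 and 0.0961) or 2 (0.126 and 0.0971), 15% CO2 library 1 (0.0714 and 0.0544), low-NaHCO3 library 1 (0.0705 and 0.0503) or control 3 (0.0509 and 0.0532). Nppb also missed it without 15% CO2 library 2 or 3 and without low-NaHCO3 library 2 or 3 (0.0566 to 0.0644). The tested ovarian markers held 1 of 4 that fell, Amh by 0.89 (adjusted p = 0.0408), at 0.458 ± 0.194 TPM in lactic acid, against 1.68 ± 0.24 TPM in control (SD, n = 3 each). It missed the threshold without any 1 library other than control 1 or low-NaHCO3 library 2, with an adjusted p from 0.0566 to 0.127. Among astrocyte markers 1 of 7 tested rose, the transcription factor Sox9, by 0.77 ± 0.12 (adjusted p = 0.011). No gene of the lists passed in a fit of only the 2 groups (adjusted p = 0.211 to 0.27 for those named here as called). Wipi1, Nppb and Myog missed the threshold without the filter (0.0557, 0.078 and 0.0548), and Myog and Amh with log2(TPM + 0.1) (0.0623 and 0.0667). The median difference was -0.01 for the muscle, -0.43 for the ovarian and -0.42 for the astrocyte list, beside -0.033 for all genes tested. Leaving out control 1 gave medians of 0.16, -0.03 and -0.09, beside -0.002, so the low ovarian and astrocyte medians depended on that library. The differences of Des, Nppb, Myog, Amh and Sox9 were then 0.87, 0.75, -0.94, -0.88 and 0.62. Without control 1, 4 muscle genes rose and 2 fell, 1 ovarian gene rose and 1 fell, and 2 astrocyte genes rose.

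**Figure D3:**
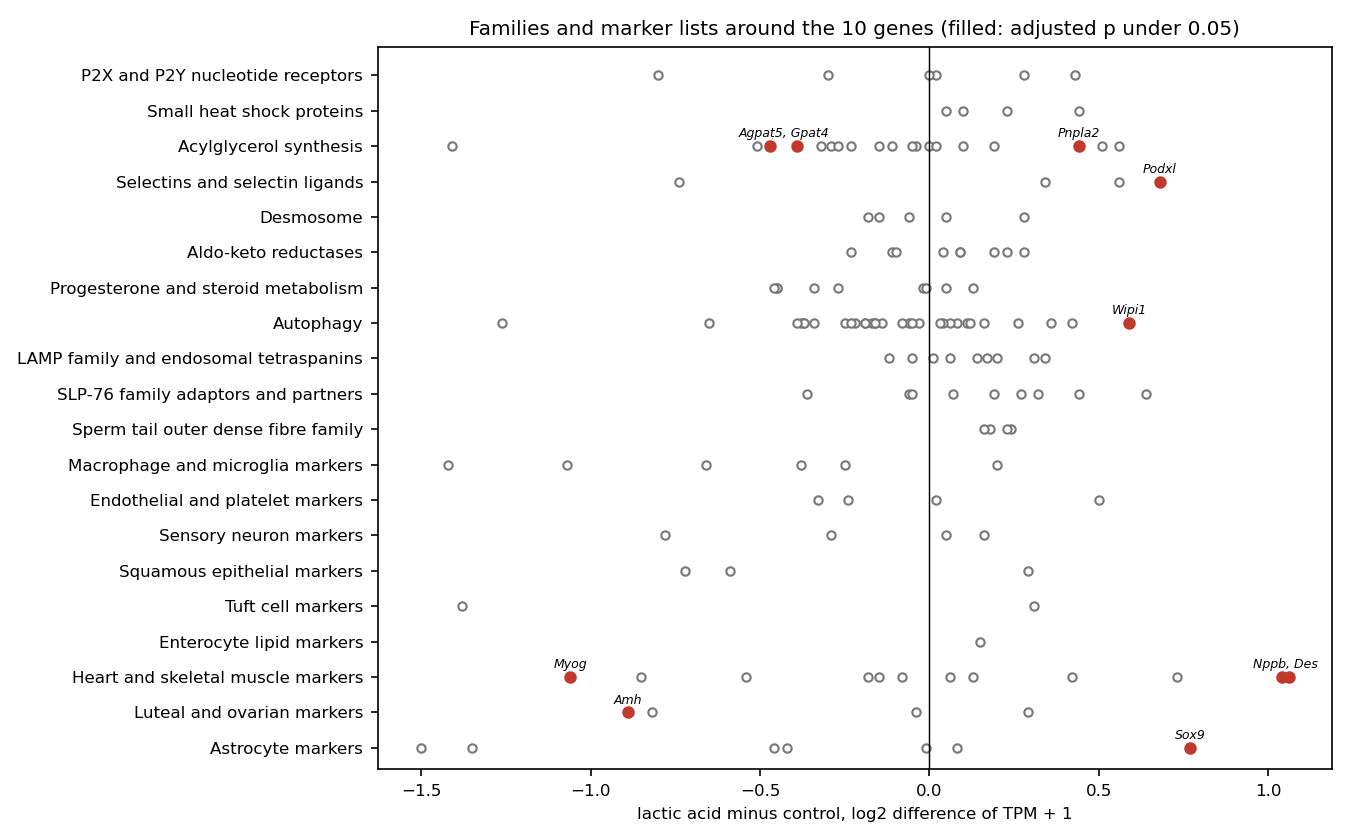
Log2 difference of TPM + 1, lactic acid minus control (horizontal axis), for each tested gene of 20 families and marker lists; points are genes, and filled points with names passed an adjusted p of 0.05. Filled points stand in 6 of the lists, and Des, at 1.06, and Nppb, at 1.04, lie farthest to the right.

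Markers of the cell types that Cd68, Selp, P2rx3 and Pkp1 are known from were measured beside them. Of 22 macrophage and microglia markers, 21 were highest in control 1, and Adgre1, P2ry12, C1qa, C1qb, C1qc and Fcgr3 were listed at 0 in the other 11 libraries. Others were present outside it: Laptm5 had a mean of 5.44 TPM and Lyz2 of 2.59 TPM in lactic acid. In low-NaHCO3 medium Lyz2 had a mean of 5.73 TPM and Cx3cr1 of 3.01 TPM. Cd68 was lowest in control 1. Endothelial and platelet markers summed to 7.56 to 10.1 TPM in lactic acid, against 6.54 to 6.85 TPM in controls 2 and 3 and 80.3 TPM in control 1. Tie1 and Pf4 were at 0 outside control 1, while Gp1ba, Itga2b and Cdh5 had means of 2.48, 1.96 and 1.53 TPM in lactic acid. Sensory neuron markers summed to 98.7 to 113 TPM in lactic acid, against 136 to 141 TPM in controls 2 and 3 and 1104 TPM in control 1. Tubb3 made up most of this in lactic acid, at 103 ± 8.02 TPM (SD, n = 3). Squamous epithelial markers summed to 52.6 to 54.2 TPM in lactic acid, against 57.3 to 64.2 TPM in controls 2 and 3 and 42.5 TPM in control 1. None of 6 macrophage, 4 endothelial and platelet, 4 sensory neuron, 3 squamous epithelial, 2 tuft cell and 1 enterocyte genes tested passed in lactic acid against control; without control 1, 1 sensory neuron and 1 squamous epithelial gene fell. What part these transcripts have in the levels of the 10 genes was not tested.

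The 10 genes lie on 9 chromosomes, and none of their tested neighbours passed in lactic acid against control. In annotation order (GENCODE M21), the nearest protein-coding gene with a row on each side gave 20 neighbours, 12 of them tested. Limma called none, and 3 had an unadjusted p under 0.05, as had 2824 of all 11996 genes tested. The log2 differences of the 12 ran from -0.54 to 0.50 with a median of -0.03. Lingo1, the lowest, and Capg, the highest, had 0.04 and 0.18 without control 1. Mpdu1 and Eif4a1, beside Cd68, had -0.36 (adjusted p = 0.0746) and -0.11 (0.766). Dgat2, an acyltransferase gene next to Mogat2 that acts after it in triacylglycerol synthesis, held 20.0 ± 1.16 TPM in lactic acid, against 23.3 ± 9.10 TPM in control (SD, n = 3 each; -0.15, adjusted p = 0.682). Akr1c13 and Akr1c14, on either side of Akr1c18, had 0.19 (adjusted p = 0.453) and -0.10 (0.814). Without control 1, Map6 (0.41, adjusted p = 0.0086), beside Mogat2, and Tnnt2 (0.30, 0.0495), beside Pkp1, rose.

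P2rx3 overlaps Ssrp1 on the opposite strand. Ssrp1 held 346 ± 17.3 TPM in lactic acid, 294 ± 2.66 TPM in low-NaHCO3 medium and 342 ± 72.4 TPM in control (SD, n = 3 each). Whether reads were counted by strand is not given in the sources used here, so reads of the 2 genes may not be told apart where they overlap. Mogat2 and Selp also overlap RNA genes on the opposite strand. Of the stretches of 50 bases in the transcripts of Selp, 11.1% occur in another gene, and at most 1.35% in each of the other 9.

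**Figure D4:**
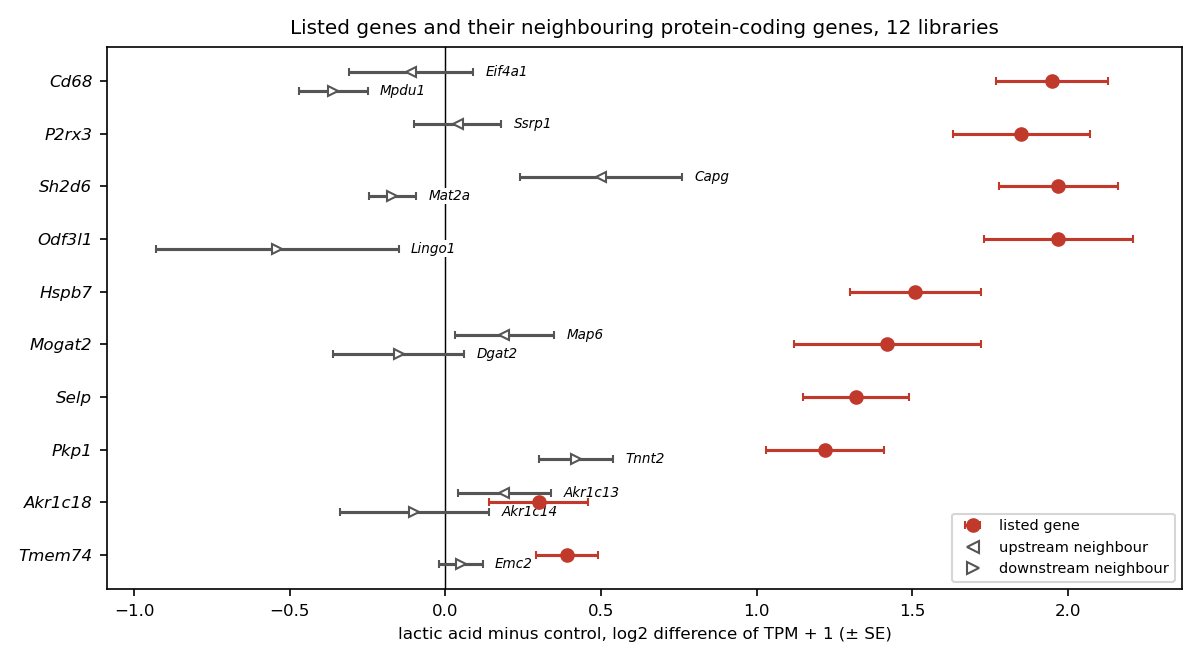
Log2 difference of TPM + 1, lactic acid minus control (horizontal axis), with standard errors, for the 10 genes (filled circles) and their tested neighbours (open triangles, pointing left for upstream and right for downstream). With control 1 included, the 12 neighbours lie between -0.54 and 0.50, and 8 of the 10 genes lie at 1.22 or above.

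Outside the list, 10752 tested genes with at least 5 TPM in a group were ranked by how close their profile over the 11 libraries came to each of the 10. The closest to Sh2d6 was Egr1, an immediate early transcription factor gene, with a root mean square difference of 0.37. Egr1 held 113 TPM in lactic acid, 51.0 TPM in 15% CO2, 199.6 TPM in low-NaHCO3 medium and 38.1 TPM in controls 2 and 3. With control 1 included, the mean of Egr1 over the controls was 69.3 TPM, so this likeness holds only without that library. Ccn1, which encodes a matricellular protein, came next (0.42). The closest to P2rx3 were Grem1, a secreted antagonist of bone morphogenetic proteins (0.46), and Satb1, a chromatin organiser (0.48). Grem1 held 114 TPM in lactic acid, 96.6 TPM in 15% CO2, 17.5 TPM in low-NaHCO3 medium and 74.4 TPM in controls 2 and 3. The fit for these 2 genes was looser than for the rest, whose closest genes differed by 0.11 to 0.30.

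Pycr1, an enzyme gene of proline synthesis, was the closest to Hspb7 (0.17) and Odf3l1 (0.26) and the second closest to Cd68 (0.30), with 28.8 TPM in lactic acid, 19.0 TPM in 15% CO2, 18.7 TPM in low-NaHCO3 medium and 12.9 TPM in controls 2 and 3. Des was the closest to Pkp1 (0.11) and Selp (0.16). Zfp385b headed the list for Cd68 (0.30), Ly6c1 and Prkcb followed Mogat2 (0.15 and 0.18), and Cd109 came second for Hspb7 and Selp (0.17 each). Akr1c18 was closest to Mnd1 (0.17) and Ier2 (0.27), and Tmem74 to Dusp5 (0.14), a phosphatase gene of the ERK pathway, and Mapk6 (0.16). Fn1 (0.26) and Rabgap1l (0.12) were second for Odf3l1 and Pkp1. Ly6c1, Prkcb, Zfp385b and Rabgap1l had means of 21.4, 38.5, 8.32 and 9.81 TPM over the 3 controls, against 4.87, 9.20, 1.75 and 5.12 TPM in controls 2 and 3, and likeness was measured without control 1.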

How the data were processed

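RNA of C8-D1A cells was sequenced in 12 libraries, 3 in each of 4 groups, with groups taken from the labels' treatments. The authors deposited 1 table of TPM per Ensembl gene for all libraries; each library sums to 1000000, so the values are shares, and read depth is unknown. Per the submitters' processing notes, fastp 0.22.0, HISAT2 2.1.0 and GRCm39 were used; for the counting tool, annotation and strand setting the labels used here give nothing. Symbols came from GENCODE M21 (21851 of 21959 IDs), and promoters from RefSeq, both on GRCm38, so no coordinates of genes are given.

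Values were transformed as log2(TPM + 1), a scale that understates the change of low genes. Genes with at least 1 TPM in all 3 libraries of any group were tested: 11996, or 12023 without control 1. A group-means model over all 12 libraries was fitted in R 4.3.3 (limma 3.58.1, trended eBayes, two-sided tests), with Benjamini-Hochberg adjustment within each comparison at 0.05, after a check on simulated data. The simulated data took their means and spreads from the libraries without control 1, so the check does not cover a fit with an outlying library.

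The 10 genes, lists and tests were chosen with earlier results of these data known. Tests of the 10 genes in 15% CO2 against control and in lactic acid against low-NaHCO3 medium had been planned but are not given, because the choice used 1 or both groups. The test in low-NaHCO3 medium against control is given, although the choice used its controls, so its p-values for the 10 genes share that limit. Besides the 10, the text names for each list up to 3 genes past the threshold with the largest change in lactic acid against control, or else the 2 most abundant, the neighbours, and the 2 most alike genes per member; other genes named, such as P2rx4 and markers listed at 0, were chosen after their values were seen. One gene that the rule names, and the summed level of its list, are not reported here. Alternatives were log2(TPM + 0.1), no filter, a filter of 5 TPM, median-of-ratios scaling, quantile normalization, fitting only the 2 groups of a comparison, robust eBayes, a replicate block, and the omission of each library in turn.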

Additional observations from a re-analysis of the deposited data

How the results depend on the processing

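In low-NaHCO3 medium against control, the comparison in which the 10 genes were tested, 192 of 200 alternative values kept their call or its absence, 5 gained a call, 3 lost one and no called value reversed. In the 4 comparisons given as descriptions, 786 of 800 values moved by less than the spread between replicates, 13 moved further and 1 changed sign. That was Tmem74 in lactic acid against low-NaHCO3 medium, with -0.03 from all libraries and -0.08 to 0.03 with 1 library left out. Control 1 widens the spread between control replicates, so this count cannot show how far values depend on it. In lactic acid against control, Mogat2 went from 1.42 to 1.01 without control 1 and was counted as within the spread. Its coefficient of variation in control was 48.8% with control 1 and 7.56% without it. The count of genes called was less stable. For lactic acid against control it was 528, and became 337 without the filter, 813 with median-of-ratios scaling, 0 in a fit of only the 2 groups (limma; 1670 at an unadjusted p under 0.05) and 107 to 2001 with 1 library left out, the highest without control 1. For lactic acid against 15% CO2 it was 40 (7 higher, 33 lower; 14 and 31 with median-of-ratios scaling, 12 and 31 with quantile normalization), and became 24 with log2(TPM + 0.1), 12 without the filter, 120 with only the 2 groups, 13 with the replicate block and 6 to 577 with 1 library left out. For 15% CO2 against control it was 169, and became 0 with only the 2 groups (limma; 1184 at an unadjusted p under 0.05), 92 with the replicate block and 30 to 916 with 1 library left out. For low-NaHCO3 medium against control (6743) and lactic acid against low-NaHCO3 medium (5998; 3797 higher and 2201 lower, 2793 and 3424 with median-of-ratios scaling, 2534 and 2505 with quantile normalization), every alternative gave a count within 1.5 times these, from 5325 to 7772 and from 4788 to 8185. The cause was not tested. Replicate numbers do not pair the libraries across all groups. Of 18 same-numbered pairs, 3 had deviations correlated above 0.1 (-0.149 to 0.49), and no library was closest to its own number in every other group. The highest values, 0.351 and 0.49, were between lactic acid and 15% CO2 in replicates 2 and 3, with -0.0296 in replicate 1. Whether these libraries share a batch was not tested. With the block Wipi1, Nppb and Amh missed the threshold in lactic acid against control (adjusted p = 0.0538, 0.0581 and 0.0668). With it, 373 genes were called in lactic acid against control, 6749 in low-NaHCO3 medium against control and 5959 in lactic acid against low-NaHCO3 medium. Without counts, no counting error could be given, and 3 libraries a group limit the precision.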
